A study of Mus musculus with 12 samples.

Results

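The genes of the LDL receptor-related protein family were followed in the brain and the liver of aged mice after repeated heat exposure. The count table listed 25239 gene symbols, and the 10 genes described here were those with the symbols Lrp1, Lrp1b, Lrp2, Lrp3, Lrp4, Lrp5, Lrp6, Lrp8, Lrp10 and Lrp12. All 10 were present in the table. The family was selected on the measured fold change of Lrp1, which was lower in the heat-stressed brains, so the brain values of its members are given as a description and without a test.

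The mice were male wild type C57BL/6J animals aged 24 months. The heat stress group was kept at 40 °C and 60% relative humidity for 3 h a day over 15 days, while the control group was not exposed to heat. The room temperature of the controls is not given in the sources used here. Each tissue had 3 control and 3 heat stress libraries, 12 in all, made from polyadenylated RNA. The labels number the libraries but do not name the animals, so a p-value below measures only the spread between these samples.

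LDL receptor-related proteins are membrane receptors built from shared kinds of cysteine-rich ligand-binding repeats. The large members, LRP1, LRP1B and LRP2, bind and internalize many ligands, among them apolipoprotein E, proteases bound to their inhibitors and carrier proteins. LRP5 and LRP6 act as co-receptors of Frizzled for Wnt proteins, LRP4 binds agrin at the neuromuscular junction, and LRP8 receives the reelin signal in neurons. In liver, LRP1 takes up remnant lipoproteins. In brain it is found on neurons, astrocytes and the cells of vessels, and it is known for the clearance of amyloid beta.

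The libraries held between 10466198 and 15609040 counts, and the heat stress brains, at 10552686 to 11147095, were shallower than the control brains, at 11889432 to 14597197. The markers fitted the labelled tissues. Summed over 8 neuron markers, the brain libraries held 4726 to 6523 CPM, that is counts scaled to a common library size with TMM normalization, against 21.8 to 57.5 in liver, and 8 hepatocyte markers summed to 120180 to 196080 CPM in liver. Liver control 1 and liver heat stress 2 stood apart. In both, 8 of 8 skeletal muscle markers were detected, with sums of 511 and 2835 CPM, whereas the sums of the other 4 liver libraries were 1.46 to 8.93 CPM and Actn3, a fast muscle gene, was at 0 counts in all 4. Liver control 1 also had 132 counts of the neuronal gene Snap25, against 0 to 14 in the other liver libraries. In the brain libraries 3 marker lists separated the groups. The 7 endothelial markers summed to 125 to 216 CPM in controls and to 86.8 to 115 CPM in heat stress brain, and the 10 choroid plexus markers to 864 to 1746 CPM and 182 to 776 CPM. The hepatocyte markers summed to 791 to 1605 CPM and 157 to 728 CPM. That list shares Ttr with the choroid plexus list, and Ttr had 2405 to 28729 counts in the brain libraries, where the other hepatocyte markers had 0 to 107. No endothelial and no choroid plexus marker was at 0 in any brain library. In bulk tissue, fewer cells of a type and less RNA per cell cannot be told apart.

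The promoter sequences available from RefSeq (GRCm38.p6) covered 5 of the 10 members. Of these, the windows of the 4 whose heat stress brains all lay below the control brains are printed here, from 250 bases before to 50 bases after the annotated start, 5′ to 3′ on the strand of the gene. Capitals mark the GC box GGGCGG, or its complement CCGCCC, a motif bound by Sp1 and related factors.

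Lrp1, chr10:127621099-127621398, minus strand: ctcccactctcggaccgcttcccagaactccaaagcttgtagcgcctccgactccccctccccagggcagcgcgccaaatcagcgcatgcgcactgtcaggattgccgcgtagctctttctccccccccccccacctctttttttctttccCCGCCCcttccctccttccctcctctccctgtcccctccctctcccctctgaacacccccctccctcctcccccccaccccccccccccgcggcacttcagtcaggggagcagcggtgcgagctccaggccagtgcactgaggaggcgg

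Lrp3, chr7:35215296-35215595, minus strand: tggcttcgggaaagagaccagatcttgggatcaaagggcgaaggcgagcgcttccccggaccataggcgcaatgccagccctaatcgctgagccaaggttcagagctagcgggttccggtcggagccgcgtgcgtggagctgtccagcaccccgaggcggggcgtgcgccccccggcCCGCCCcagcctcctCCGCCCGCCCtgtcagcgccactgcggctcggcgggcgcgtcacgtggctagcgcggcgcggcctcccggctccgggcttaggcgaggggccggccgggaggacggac

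Lrp8, chr4:107802635-107802934, plus strand: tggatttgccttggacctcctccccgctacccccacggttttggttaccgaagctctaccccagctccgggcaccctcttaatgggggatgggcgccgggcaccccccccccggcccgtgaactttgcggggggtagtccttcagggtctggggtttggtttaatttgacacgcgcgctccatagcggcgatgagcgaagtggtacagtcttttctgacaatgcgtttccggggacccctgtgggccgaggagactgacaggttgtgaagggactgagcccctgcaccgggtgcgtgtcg

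Lrp10, chr14:54463897-54464196, plus strand: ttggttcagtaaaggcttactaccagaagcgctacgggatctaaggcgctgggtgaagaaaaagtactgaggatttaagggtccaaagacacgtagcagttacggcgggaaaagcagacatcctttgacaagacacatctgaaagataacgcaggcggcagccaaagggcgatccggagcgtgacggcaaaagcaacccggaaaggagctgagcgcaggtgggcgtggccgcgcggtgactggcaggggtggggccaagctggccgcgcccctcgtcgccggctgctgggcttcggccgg

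The Lrp1 window held 1 GC box and the Lrp3 window 3, of which 2 overlapped, while the windows of Lrp8 and Lrp10 held 0. Of all 32851 promoter windows of the same length, 35.7% held a GC box on either strand. The heat shock element GAANNTTCNNGAA, the motif of the heat shock factors, was in none of these 4 windows and in 0.603% of all windows, and its shorter form GAANNTTC, which lies within the longer one, was also in none of the 4 and in 7.86% of all. The GC content of the windows was 67.7% for Lrp1, 73.0% for Lrp3, 62.7% for Lrp8 and 60.0% for Lrp10, against a median of 52.7% over all windows. Lrp8 has 3 annotated starts, and the window nearest to the start of the gene is the one shown.

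The first comparison asked where each receptor is expressed. Levels between genes were compared as CPM per kb of transcript, with all 12 libraries normalized together. Lrp1 was the highest member in both control tissues, at 19.2 ± 3.79 (SD, n = 3) CPM per kb in brain and 34.0 ± 14.8 (SD, n = 3) in liver. In control brain it was followed by Lrp3 at 13.6, Lrp8 at 11.2, Lrp12 at 7.30, Lrp10 at 5.43, Lrp4 at 4.20, Lrp6 at 3.92, Lrp1b at 1.48, Lrp5 at 1.40 and Lrp2 at 0.044 CPM per kb. The libraries of the neighbours Lrp3 and Lrp8, Lrp10 and Lrp4, Lrp4 and Lrp6, and Lrp1b and Lrp5 overlapped, and the other neighbours in this order were separated in every library. In control liver the order after Lrp1 was Lrp10 at 11.4, Lrp5 at 7.32, Lrp6 at 7.16, Lrp3 at 3.86, Lrp4 at 3.08, Lrp12 at 1.49, Lrp2 at 0.114, Lrp8 at 0.063 and Lrp1b at 0.0063 CPM per kb. There, apart from Lrp1 over Lrp10 and Lrp12 over Lrp2, each pair of neighbours overlapped.

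**Figure D1:**
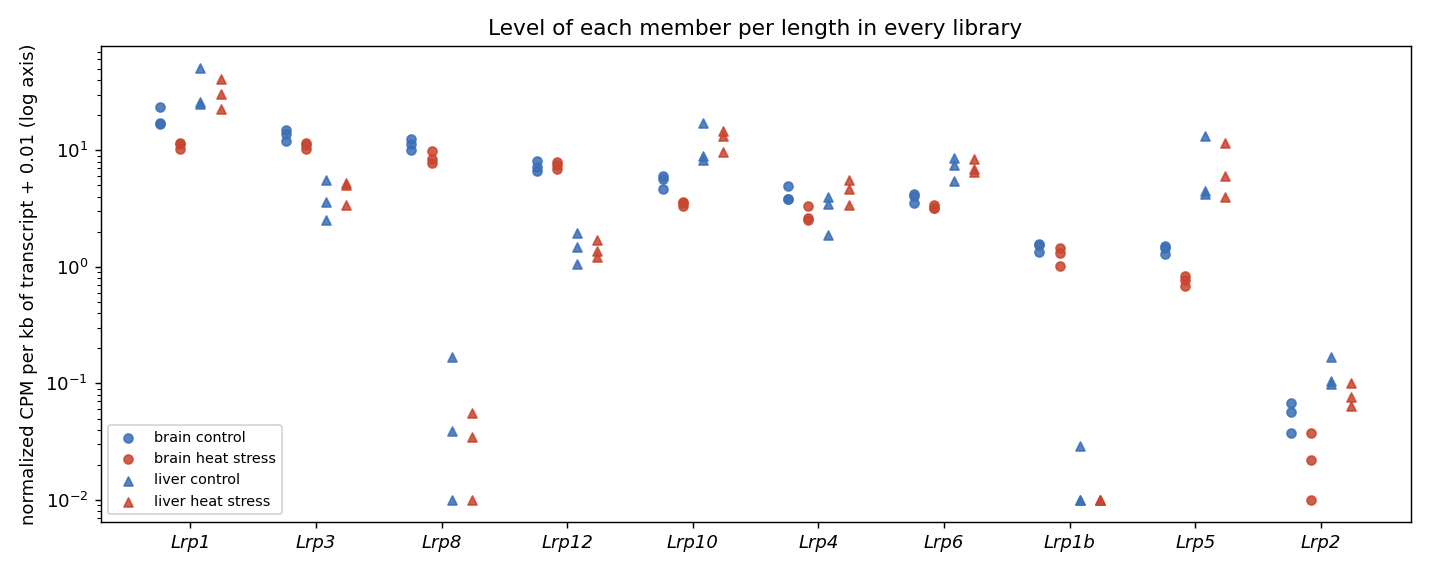
Level of each member per length in every library, as normalized CPM per kb of transcript plus 0.01 on a log axis. Circles are brain and triangles liver libraries, blue control and red heat stress, and each point is 1 library. Lrp1 is at 10.1 or higher in all 12 libraries, while Lrp1b and Lrp8 are high in brain and near the bottom of the axis in liver.

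Between control brain and control liver, 7 of the 10 members passed an adjusted p-value under 0.05 with a log2 fold change past 1, 4 higher in brain and 3 higher in liver (quasi-likelihood test of edgeR, Benjamini-Hochberg adjusted over 15213 genes). Over all tested genes 36.7% were called higher in brain and 27.8% higher in liver, so the counts of the family lie near what any 10 genes of this table give, and it is the identity of the members that the comparison shows.

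Lrp8, Lrp1b, Lrp12 and Lrp3 made up the brain side. Lrp8, the reelin and apolipoprotein E receptor, had 1206, 776 and 914 counts in the control brains and 7, 0 and 1 in the control livers. That is a ratio of 359 per counted read, with a 95% exact binomial (Clopper-Pearson) interval of 182 to 832 (adjusted p = 6.56e-07, edgeR). Lrp1b, the close relative of Lrp1, had 464, 431 and 449 counts in control brain and 3, 0 and 0 in control liver, a ratio of 444 with an interval of 152 to 2160. Liver control 1, the library with more Snap25, held all 3 of the liver counts of Lrp1b and 7 of the 8 of Lrp8, and the part of brain RNA in these counts was not tested. Without this library the ratio of Lrp8 was 1700, with an interval of 304 to 67000 that rests on 1 liver count, and Lrp1b had 0 counts in liver. Lrp12 was 2.29 log2 units higher in brain (standard error 0.24, adjusted p = 1.52e-05, edgeR). Lrp3 was 1.80 log2 units higher in brain (standard error 0.27), but after a per-library correction on transcript length and GC content its difference turned to 0.98 log2 units higher in liver. Between tissues this correction also removes any real difference that is ordered by length or GC content. Which set of values is closer to the RNA in the tissues was not tested, here and for the members below.

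Lrp5, Lrp2 and Lrp10 formed the liver side. Lrp5, a Wnt co-receptor, had 7.66, 6.57 and 7.41 normalized CPM in the control brains and 69.0, 23.0 and 21.6 in the control livers, without overlap (log2 difference of brain against liver -2.40 with standard error 0.43, adjusted p = 0.000612, edgeR). Lrp10, a small endocytic receptor that moves between the Golgi and endosomes, was lower in brain by a log2 difference of -1.09 (standard error 0.28, adjusted p = 0.0057, edgeR). Lrp2, known as megalin and typical of absorptive epithelia, was low in both tissues, at 9, 15 and 13 counts in brain and 24, 12 and 11 in liver (log2 difference -1.41, adjusted p = 0.0107, edgeR). Without liver control 1, a library with muscle transcripts, the log2 difference of Lrp5 was -1.63, and 5 members passed in place of 7, since the log2 difference of Lrp10 shrank to -0.68 and the adjusted p-value of Lrp2 rose to 0.0584. Lrp10 also fell short of the fold threshold without brain control 2, at -0.90, and in DESeq2, at -0.999, so that 6 members passed in each case. Without brain control 1 the adjusted p-value of Lrp2 was 0.0519. Without liver control 2 the count was 9. With the correction for length and GC content the log2 differences were -4.27 for Lrp5, -2.71 for Lrp10 and -3.34 for Lrp2.

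Lrp1 and Lrp6 were lower in brain as well, with log2 differences of -0.84 (standard error 0.32, adjusted p = 0.0347, edgeR) and -0.88 (standard error 0.21, adjusted p = 0.00324, edgeR), short of the fold threshold. With the correction they were at -3.71 (adjusted p = 9.16e-08, edgeR) and -2.24 (adjusted p = 6.99e-07, edgeR), past it. Real tissue differences ordered by length or GC content are removed there as well, so the corrected sizes are not read as the difference in RNA. As counted, the adjusted p-value of Lrp1 was 0.0735 without liver control 1, 0.0946 without brain control 2 and 0.109 without brain control 3 (edgeR). Lrp4 did not differ past the threshold, at 0.44 log2 units higher in brain (adjusted p = 0.165, edgeR), and with the correction for length and GC content it was 1.42 log2 units higher in liver. As counted, without liver control 1 it was 0.66 log2 units higher in brain (adjusted p = 0.0283, edgeR), still short of the fold threshold. Without liver control 2 it was 0.17 log2 units higher in brain.

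The question put to the brain libraries was how the family behaved after heat stress. Of the 10 members 9 had enough counts to enter the fit, and 8 of these had a log2 fold change below 0, while 50.3% of all 14806 fitted genes did. In 7 of the 9, all heat stress brains lay below all control brains, beside 12% of all genes. The median log2 fold change was -0.37 over the 9 members and -0.0030 over all genes. Because the family was picked for Lrp1 in this contrast, nothing is read from these counts. Over all genes 0 passed an adjusted p-value under 0.05 in edgeR, with 2969 at an unadjusted p-value under 0.05 and 618 at an adjusted one in DESeq2.

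Among the large endocytic receptors, Lrp1 (chr10:127538161-127621148, minus strand, mm10) had 512, 378 and 363 normalized CPM in the control brains and 254, 222 and 244 in the heat stress brains. Every heat stress brain lay below every control brain, and control 1 was well above the other controls. The mean fell from 417.6 ± 82.5 (SD, n = 3) to 240.3 ± 16.3 (SD, n = 3), 57.5% of the control mean, with a log2 fold change of -0.80 (standard error 0.16). Of all fitted genes, 1.54% had a fold change as low or lower, and since Lrp1 was picked for this fall, nothing is read from that share. Lrp1b (chr2:40595246-42653624, minus strand) had 31.8, 37.6 and 36.3 in controls and 34.4, 24.3 and 30.9 after heat stress. Its groups overlapped (log2 fold change -0.24 with standard error 0.15, -0.36 without heat stress 1 and -0.11 without heat stress 2). Lrp2 (chr2:69424340-69586065, minus strand) did not reach the count filter. Its counts were 9, 15 and 13 in controls and 3, 7 and 0 in heat stress brain, where a count of 0 allows up to 2.84e-05% of the counts of that library. In CPM its mean was 30.4% of the control mean, and the groups overlapped. The heat stress library without a count of Lrp2 was also the one with the lowest choroid plexus sum, 182 CPM, and the part of that tissue in the Lrp2 counts was not tested. Likewise the endothelial sum moved with Lrp1, and its part was not tested.

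The Wnt co-receptors differed in size. Lrp5 (chr19:3584828-3686564, minus strand) had 11.2, 9.69 and 10.8 CPM in control brain and 6.28, 5.73 and 5.10 after heat stress. The groups were far apart relative to their spread, with means of 10.6 ± 0.798 (SD, n = 3) and 5.70 ± 0.590 (SD, n = 3), and the log2 fold change of -0.89 (standard error 0.17) was the lowest of the 9 fitted members. Without brain control 3, Lrp1 at -0.89 was just below Lrp5 at -0.88. Lrp6 (chr6:134446476-134566965, minus strand) had 57.7, 48.5 and 54.8 in controls and 44.1, 43.8 and 46.5 after heat stress. It was lower in every heat stress brain by a small margin (log2 fold change -0.26 with standard error 0.11).

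Lrp4 (chr2:91457511-91513779, plus strand), the receptor of agrin, had 57.2, 44.6 and 44.0 CPM in controls and 29.5, 38.6 and 30.6 in heat stress brain. The groups did not overlap, although the highest heat stress brain came near the lower controls (log2 fold change -0.56 with standard error 0.15). Lrp8 (chr4:107802261-107876840, plus strand) had 82.7, 67.7 and 74.0 in controls and 52.2, 56.0 and 65.4 after heat stress. Here the gap between the groups was narrow, at 65.4 against 67.7 (log2 fold change -0.37 with standard error 0.13).

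The smaller members are less studied. Lrp10 (chr14:54464137-54471497, plus strand) had 37.0, 29.0 and 34.6 CPM in controls and 21.7, 22.5 and 20.5 in heat stress brain. The heat stress brains lay close together and below all controls (log2 fold change -0.64 with standard error 0.13). Its exons share 475 bases with an antisense transcript that the count table does not list. Lrp3 (chr7:35200027-35215498, minus strand) had 90.5, 73.7 and 82.4 in controls and 67.4, 62.4 and 70.4 after heat stress, also without overlap (log2 fold change -0.30 with standard error 0.11). It shares 513 exonic bases with Slc7a10 on the opposite strand, and whether the counting used the strand is not given in the sources used here. Lrp12 (chr15:39870589-39943994, minus strand) was the exception. It had 44.5, 50.7 and 40.7 in controls and 47.0, 42.6 and 49.0 after heat stress, and the groups were mixed (log2 fold change 0.029 with standard error 0.12).

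**Figure D2:**
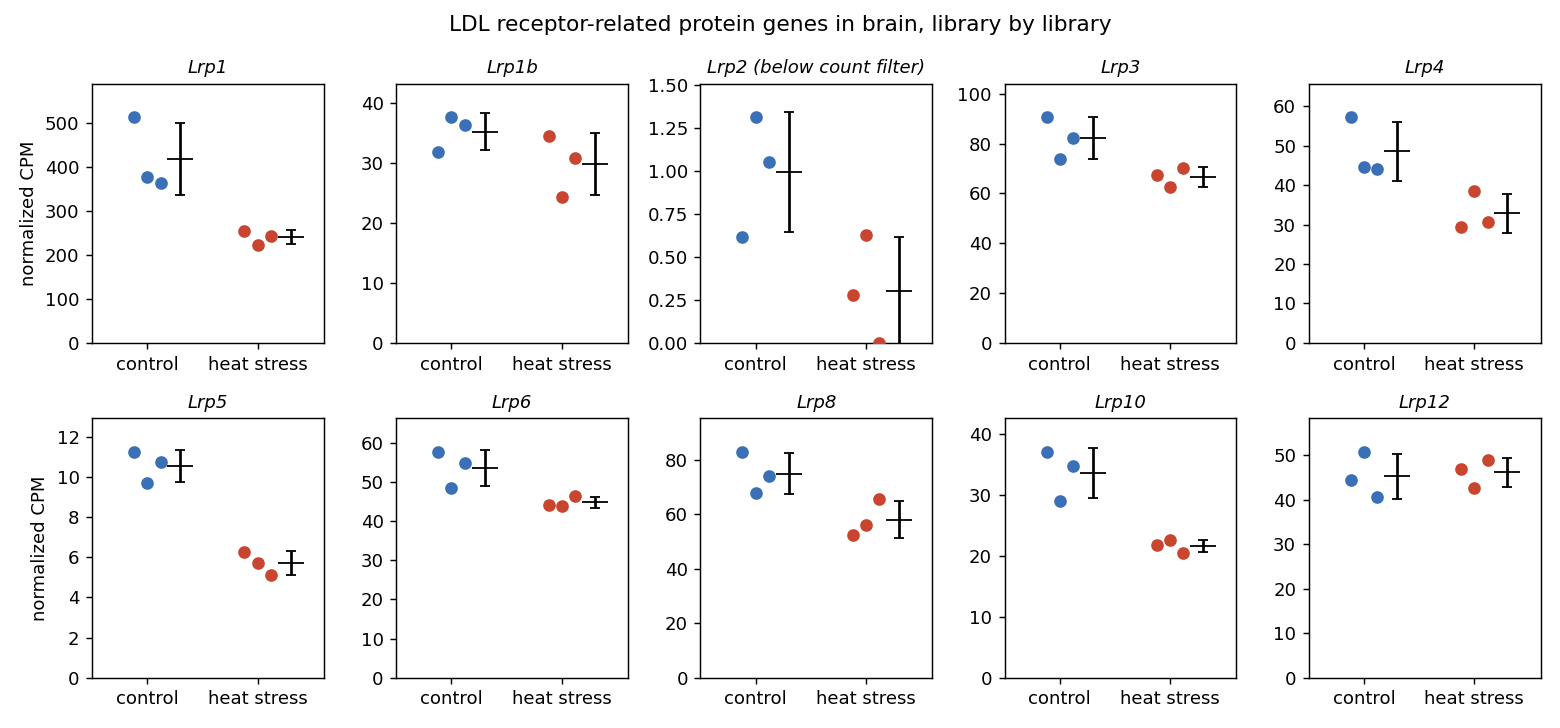
Normalized CPM of each member in the brain, 1 panel a gene, with control libraries in blue and heat stress libraries in red in the order 1, 2, 3, and the mean with its SD in black. The heat stress points of Lrp1, at 222 to 254 CPM, lie below the control points, at 363 to 512, and those of Lrp12 are mixed with the controls.

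The brain libraries also differed in how their counts depended on the length and the base composition of transcripts. The slope of log2 CPM per doubling of transcript length was 0.10, 0.018 and 0.070 in the control brains and -0.054, -0.12 and -0.016 in the heat stress brains, relative to the mean of the 6. The slope per 10 percentage points of GC content was 0.16, -0.012 and 0.050 in controls and -0.10, -0.078 and -0.017 after heat stress. Neither set of slopes overlapped between the groups. Over deciles of length, the median log2 fold change went from 0.31 in the shortest transcripts to -0.20 in the longest, where 75.9% of the genes were below 0. Over deciles of GC content it went from 0.22 in the lowest to -0.096 in the highest.

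The members have long transcripts, from 4147 bases in Lrp3 to 16294 bases in Lrp1b, and lie in deciles 7 to 10 of length. Lrp1, with 14888 bases and 57.9% GC, is in decile 10 of length and 9 of GC content. Lrp5 and Lrp10, at 58.6% and 58.8% GC, are in the highest GC decile, as is Lrp3 at 62.9%. Lrp1b has the lowest GC content of the 9 fitted members, at 43.5%. In order of rising GC content the log2 fold changes were -0.24 for Lrp1b, -0.26 for Lrp6, 0.029 for Lrp12, -0.37 for Lrp8, -0.56 for Lrp4, -0.80 for Lrp1, -0.89 for Lrp5, -0.64 for Lrp10 and -0.30 for Lrp3.

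After each brain library was corrected for length and GC content, the log2 fold change of Lrp1 moved from -0.80 to -0.29 and the median of the family from -0.37 to -0.16. On the corrected log2 scale Lrp1 was at 8.61, 8.47 and 8.25 in controls and 8.28, 8.19 and 7.99 in heat stress brain, so that its groups overlapped. Lrp5 moved to -0.60 and Lrp10 to -0.39, and their groups stayed apart, with Lrp5 at 3.23 to 3.31 in controls and 2.43 to 2.86 after heat stress. Lrp8 moved to -0.16, with groups that were just separate, at 6.08 to 6.17 and 5.83 to 6.07. How many of all genes stay apart on the corrected scale was not counted, so nothing is read from these separations. Lrp4 at -0.21, Lrp6 at -0.078, Lrp3 at -0.056, Lrp1b at -0.027 and Lrp12 at 0.13 all overlapped between the groups. The correction removes any part of the heat response that is itself ordered by length or GC content, so these 2 sets of values cannot be told apart as to which is closer to the RNA in the tissue.

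**Figure D3:**
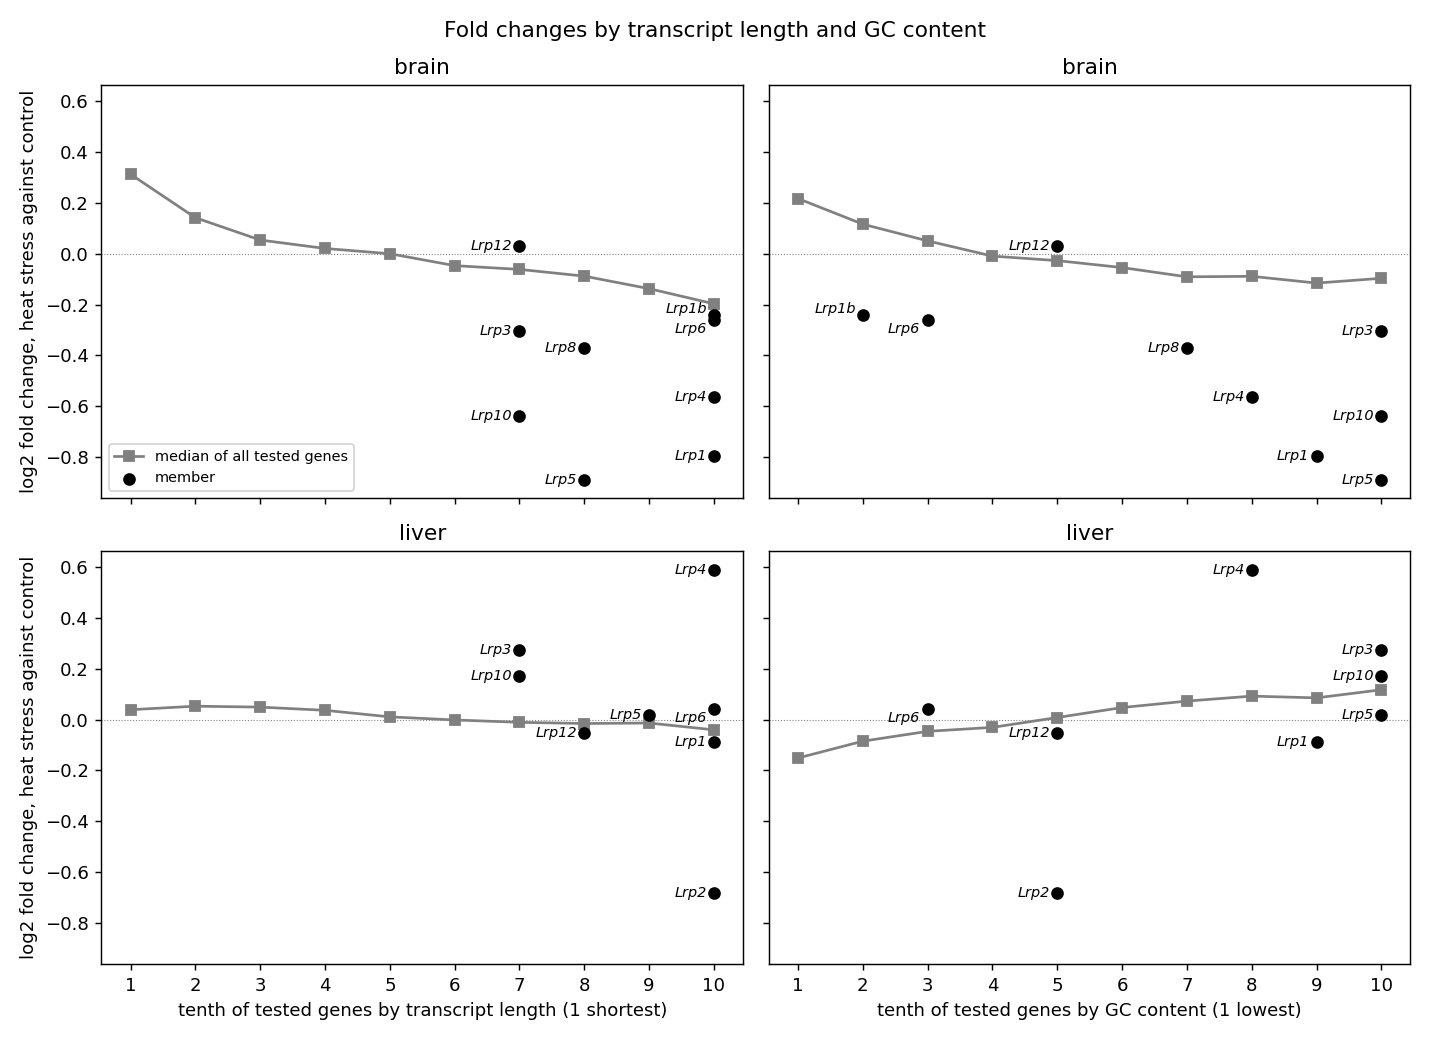
Log2 fold change of heat stress against control for each tested member, in black, over the deciles of all tested genes by transcript length (left) and GC content (right), in brain (top) and liver (bottom), with the median of all genes in each decile in grey. In brain the grey line falls from 0.31 to -0.20 over length, and 8 of the 9 members lie below it, all but Lrp12.

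The brain genes whose pattern was most like that of Lrp1 were found by the root mean square difference of log2 CPM, centred on each gene, over the 6 libraries. They were Plxna1 with a difference of 0.052, Ubr4 with 0.067, Prpf8 with 0.070, Astn2 with 0.080 and Map1a with 0.084 log2 units. Their transcripts have between 4675 and 15928 bases. Their log2 fold changes in brain were -0.80 to -0.75, since a small difference requires a fold change near that of Lrp1. The likeness is therefore no result apart from that fold change. Among the members the nearest to Lrp1 were Lrp5, at 0.15, and Lrp10, at 0.17, and the farthest was Lrp12, at 0.45 log2 units.

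In liver the same contrast was not used to choose the family and was tested. Of the 10 members 8 had enough counts, and 0 of the 8 passed an adjusted p-value under 0.05 in edgeR's quasi-likelihood test, with 0 at an unadjusted p-value under 0.05. In DESeq2 0 of 7 passed, since Lrp2 was given no adjusted p-value, beside 0.52% of all genes. Over all 12296 genes 0% passed in edgeR, and 2.87% were lower and 2.97% higher at the unadjusted level. The median log2 fold change was 0.031 over the 8 members and 0.011 over all genes, 3 members were below 0 and 5 above, and 48.2% of all genes were below 0. In no member did all heat stress livers lie above all control livers, as they did in 5.38% of all genes.

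Lrp1 had 477, 275 and 261 CPM in the control livers and 235, 403 and 316 in the heat stress livers. The high values of each group belong to liver control 1 and liver heat stress 2, the libraries with muscle transcripts, and the groups were mixed (log2 fold change -0.087 with standard error 0.28, adjusted p = 0.984, edgeR). Without these 2 libraries the log2 fold change was 0.025. Lrp5 followed the same order of libraries, with 43.1, 16.3 and 15.1 in controls and 14.3, 39.8 and 21.8 after heat stress (log2 fold change 0.020 with standard error 0.47). Lrp10 also had its highest values in liver control 1 and heat stress 2, at 45.3, 25.0 and 26.6 in controls and 28.5, 41.5 and 39.3 after heat stress (log2 fold change 0.17 with standard error 0.25, and 0.38 without the 2 libraries).

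These libraries differed in base composition as well. The slope of log2 CPM per 10 percentage points of GC content was 0.22 in liver control 1, 0.18 in heat stress 2 and 0.16 in heat stress 3, against -0.23 to -0.16 in the other 3. After the correction for length and GC content the 6 liver values of Lrp1 spanned 0.35 log2 units in place of 1.02, those of Lrp10 0.28 in place of 0.85, and those of Lrp5 still 1.01 in place of 1.58. The slope per doubling of length was -0.071, -0.052 and -0.063 in liver control 2, heat stress 1 and heat stress 3, and 0.055 to 0.074 in the other 3. The 3 libraries with negative slopes are those whose columns carry an added "2nd", which the sources used here do not explain. With this mark as a term of the fit, chosen after seeing the data, 0 members passed in edgeR, and the log2 fold change was 0.064 for Lrp1, 0.30 for Lrp5 and 0.32 for Lrp10. The parts of muscle tissue and of base composition in these values were not tested.

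Lrp4 had the highest log2 fold change of the 8 fitted members in liver. It was at 19.6, 10.4 and 19.1 CPM in controls and at 18.8, 24.5 and 30.8 after heat stress. The lowest heat stress liver lay just under the upper controls, and the difference did not pass (log2 fold change 0.59 with standard error 0.27, unadjusted p = 0.0538, adjusted p = 0.860, edgeR). It fell to 0.35 without liver control 2 and to 0.39 without heat stress 3. Without the libraries with muscle transcripts it was 0.73 (adjusted p = 0.429, edgeR), and 0.78 with the column mark as a term (adjusted p = 0.530, edgeR). With the correction for length and GC content it was 0.56 (adjusted p = 0.436, edgeR). On the corrected log2 scale the groups separated narrowly, at 3.67, 4.04 and 4.34 in controls and 4.35, 4.45 and 4.93 after heat stress. How many of all genes separate on that scale was not counted. Lrp4 was then the 1 of 8 members with an unadjusted p-value under 0.05, a level at which 4.85% of all genes were higher with the correction.

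Lrp2 had 24, 12 and 11 counts in control liver and 13, 8 and 9 after heat stress. In CPM all heat stress livers lay below all control livers, as in 5.73% of all genes, with the nearest pair at 0.968 and 0.979 (log2 fold change -0.68 with standard error 0.41, adjusted p = 0.930, edgeR). On the corrected log2 scale the groups overlapped, at 0.61, 0.33 and 0.15 in controls and 0.31, -0.66 and -0.11 after heat stress. Without the libraries with muscle transcripts the log2 fold change of Lrp2 was -0.26, so its size rests on them.

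Lrp3, at 14.3, 10.5 and 7.27 CPM in controls and 9.83, 14.6 and 14.6 after heat stress, overlapped (log2 fold change 0.27, adjusted p = 0.947, edgeR). The log2 fold change of Lrp3 was 0.064 without liver control 3 and 0.54 without liver control 1. As counted, Lrp6 was the steadiest member in liver. It was at 50.5, 36.2 and 48.9 in controls and 44.6, 52.9 and 42.1 after heat stress (log2 fold change 0.042 with standard error 0.19). After the correction for length and GC content Lrp6 spanned 0.45 log2 units, more than Lrp10 at 0.28 and Lrp1 at 0.35. Lrp12 was at 3.94, 3.18 and 5.78 in controls and 4.99, 3.83 and 3.55 after heat stress (log2 fold change -0.053 with standard error 0.29). Neither Lrp6 nor Lrp12 separated the groups. Lrp1b had no count in any heat stress liver, and Lrp8 had 0, 2 and 1, so a difference between the groups was not detectable at this depth.

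**Figure D4:**
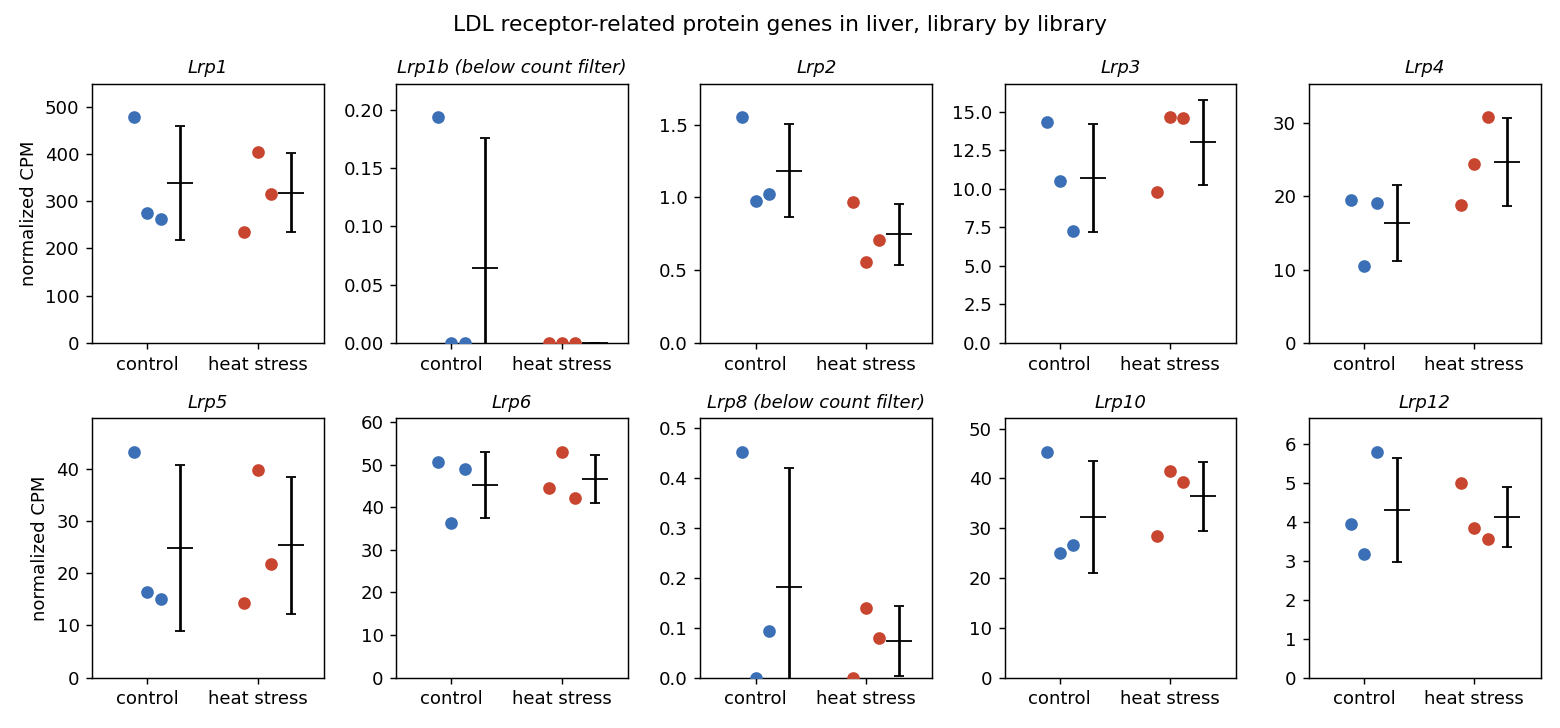
Normalized CPM of each member in the liver, 1 panel a gene, with control libraries in blue and heat stress libraries in red in the order 1, 2, 3, and the mean with its SD in black. For Lrp1, Lrp5 and Lrp10 the highest point of each group is control 1 or heat stress 2, and in these genes the groups overlap.

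Whether the effect of heat stress differed between the tissues was tested as liver minus brain in a fit of all 12 libraries. Of the 9 members other than Lrp1, which was left out because its brain fold change chose the family, 0 passed an adjusted p-value under 0.05 in edgeR's quasi-likelihood test, beside 0.00632% of all 15824 genes. In DESeq2 0 of 8 passed, with Lrp2 given no adjusted p-value, beside 0.449% of all genes. Unadjusted, 2 had a p-value under 0.05, Lrp4 and Lrp10, both with a higher value in liver, as in 3.73% of all genes. The difference was 1.13 log2 units for Lrp4 (standard error 0.36, unadjusted p = 0.00777, adjusted p = 0.516, edgeR) and 0.78 for Lrp10 (standard error 0.35, adjusted p = 0.516, edgeR). With the correction for length and GC content these became 0.78 and 0.50. Since the brain side of this difference is the contrast that chose the family, these 2 values are no independent support for it. Lrp1b and Lrp8 are included in the 9 and the 8 above, but their values are not read, because their liver counts were at most 7.

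**Figure D5:**
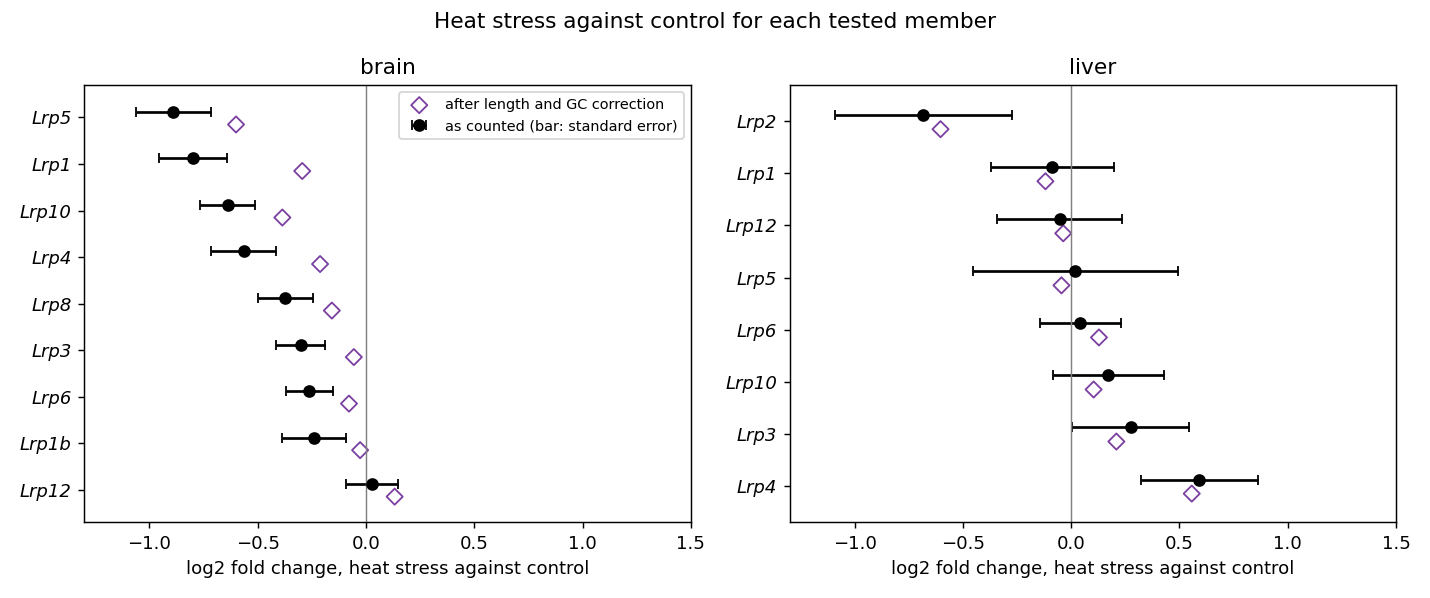
Log2 fold change of heat stress against control for the tested members in brain (left) and liver (right). Black points with bars are the values as counted with their standard error, and open diamonds the values after the correction for transcript length and GC content, with which Lrp1 in brain moves from -0.80 to -0.29.

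The ligands, partners and regulators of these receptors were described with a list of 60 other genes, all present in the table. In brain 53 were tested and 0 passed an adjusted p-value under 0.05 in edgeR, while DESeq2 called 2, Calr and Sorl1, both lower. These are 6.67% of the 30 listed genes to which DESeq2 gave an adjusted p-value, beside 3.86% of all 7769 such genes. At an unadjusted p-value under 0.05 edgeR gave 9 genes lower and 3 higher, that is 17.0% and 5.66% of the list, beside 10% of all genes in each direction. With the correction for length and GC content 5 were lower and 3 higher, beside 5.26% and 6.36% of all genes. The median log2 fold change was -0.091 over the list and -0.0030 over all genes.

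Of 7 related receptors, 2 were among these 9. Sorl1, a sorting receptor with the same kind of ligand-binding repeats, had 330, 201 and 220 CPM in controls and 165, 128 and 178 in heat stress brain, without overlap (log2 fold change -0.68 with standard error 0.20, adjusted p = 0.170, edgeR). Sort1, which encodes sortilin, had a log2 fold change of -0.54. After the correction for length and GC content these values were -0.34 and -0.29. Vldlr, the other reelin receptor, was at 0.10.

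Of 17 endocytic ligands 14 were tested, with 3 lower and 1 higher at an unadjusted p-value under 0.05. Calr, an endoplasmic reticulum chaperone that also binds LRP1, had 415, 349 and 330 CPM in controls and 248, 233 and 257 in heat stress brain. The groups were well apart, and the log2 fold change was -0.57 (standard error 0.13, adjusted p = 0.170, edgeR) and -0.63 after the correction. App, the amyloid precursor, was at -0.44 and Clu, which encodes apolipoprotein J, at -0.35. After the correction App was at -0.28 and Clu at -0.38. Rbp4, the carrier of retinol, was at 0.56, and Apoe at -0.091 with overlapping groups.

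For the chaperones Lrpap1 and Mesd, which guide the receptors through the endoplasmic reticulum, the log2 fold changes were 0.067 and -0.028, and 0 of the 8 adaptors reached an unadjusted p-value under 0.05. Among the Wnt antagonists and signal parts 10 of 14 were tested and 2 were lower at that level. Sostdc1, a secreted antagonist that binds LRP5 and LRP6, had 10.1, 8.03 and 14.7 CPM in controls and 4.43, 8.33 and 2.17 in heat stress brain (log2 fold change -1.13), an order close to that of the choroid plexus sums, whose part was not tested. Axin2, a target of Wnt signalling, was at -0.35 and at -0.13 after the correction. Of the genes of shedding and turnover, Furin, which cleaves the LRP1 precursor, was at -0.40, and at -0.14 after the correction. Amn, the partner of cubilin, was higher in every heat stress brain (log2 fold change 0.68), while Reln at -0.27 and Agrn at -0.28, the ligands of LRP8 and LRP4, overlapped.

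In liver 46 of the 60 genes were tested and 0 passed an adjusted p-value under 0.05 in edgeR, nor did any of the 45 with an adjusted p-value in DESeq2. At an unadjusted p-value under 0.05 edgeR gave 0 lower and 3 higher, 6.52% of the tested list beside 2.97% of all genes. With the correction it was 1 lower and 1 higher, beside 4.49% and 4.85% of all genes. Lpl, lipoprotein lipase, had 22.9, 15.5 and 15.7 CPM in controls and 30.7, 77.3 and 19.6 after heat stress, and its high value is that of heat stress 2, the library with most muscle transcripts (log2 fold change 1.24, adjusted p = 0.779, edgeR). Mylip, which encodes a ubiquitin ligase that marks lipoprotein receptors for degradation, was higher in all 3 heat stress livers, from 4.84, 6.44 and 7.46 to 9.83, 8.36 and 8.68 CPM (log2 fold change 0.53, adjusted p = 0.846, edgeR).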

How the data were processed

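Brain and liver RNA of 12 libraries, 3 per group, was sequenced as stranded messenger RNA. The authors deposited raw read counts per gene symbol, without normalization. Their methods describe trimming with Trimmomatic 0.39, HISAT2 2.2.1 on mm10 and featureCounts of Subread 2.0.1 (versions from the submitters' processing notes), and elsewhere Tophat2 with HTSeq. The annotation, strand setting and treatment of shared reads are not given in the sources used here. The authors' own tables of fold changes and p-values were not used.

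Counts were fitted with edgeR 4.0.16 in R 4.3.3 (TMM, filterByExpr at 10 counts per gene and 15 in total, robust quasi-likelihood test, Benjamini-Hochberg adjustment over all tested genes), with only the groups compared in each fit. Normalized CPM were scaled over the libraries of each comparison, and marker sums and levels per kb over all 12, so their sizes differ. Standard errors were derived from the fold change and the F statistic. The members, lists and alternatives were chosen with earlier results of these data known, and the genes named are the members, the listed partners with an unadjusted p-value under 0.05 or a defining role, and the 5 genes most like Lrp1. Some listed partners are counted but not reported here. Lengths, GC content and coordinates came from GENCODE M21 on GRCm38 (mm10), with both values for 24708 of 25239 symbols. The correction subtracted from each library smooth fits on both, with 4 degrees of freedom each. Intervals and floors of 3 counts cover counting error only. In simulated counts with 200 genes changed 4-fold, edgeR recovered 189 with 8 false calls in brain, 186 with 19 in liver, 185 with 18 between the control tissues and 147 with 4 for the liver minus brain difference. The simulated counts held no trend with length or GC content. A 4-fold change is larger than the heat stress fold change of any fitted member in brain or liver. The recovery of changes of that smaller size was not simulated.

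Alternatives were DESeq2 1.42.0 and its size factors, other filters, the replicate number as a block, the correction, and 1 fit of all libraries for the brain and liver contrasts. Others were the liver fits without the libraries with muscle transcripts or with the column mark "2nd" as a term, and each library left out. Deviations of same-numbered control libraries of brain and liver correlated at 0.35, 0.34 and 0.11 across genes. This does not show that they came from the same animals, which the labels do not name. The reported fit between the control tissues was unpaired, and the replicate block was run only as an alternative. The heat stress libraries, which that comparison does not use, correlated at 0.049, -0.20 and 0.038. The block changed no call of a member there, and over all genes moved the adjusted calls from 11915 to 12106.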

Additional observations from a re-analysis of the deposited data

How the results depend on the processing

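The log2 fold change of Lrp1 in brain was -0.29 with the length and GC correction, -0.29 with the replicate block and this correction together, and -0.52 with length alone, a correction chosen after seeing the data. It lay between -0.89 and -0.62 with a library left out. The family median in brain was -0.16 with the correction, -0.16 with the block as well, and between -0.47 and -0.31 with a library left out. The members called between the control tissues numbered 5 to 9 with a library left out, 5 without liver control 1, and 9 with the correction. Lrp3 then turned to -0.98 (-0.97 with the block) and Lrp4 to -1.42 (-1.40 with the block, -0.96 with length alone). The adjusted p-values of Lrp1 and Lrp2 there passed 0.05 with some libraries left out, up to 0.109 and 0.0584.

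In liver 0 members were called under any alternative run, and the median lay between -0.15 and 0.36 with a library left out. Near 0, signs changed. Lrp5 was at -0.045 with the correction, -0.018 with the block and correction, -0.049 with GC alone and -0.031 in 1 fit of all libraries, and Lrp1 at 0.0049 with length alone and 0.025 without the libraries with muscle transcripts. With the column mark "2nd" as a term, Lrp1 was at 0.064, Lrp12 at 0.035 and the liver minus brain difference of Lrp12 at 0.020. With a library left out Lrp5 ranged from -0.47 to 0.68, Lrp1 from -0.29 to 0.24, Lrp6 from -0.096 to 0.12 and Lrp12 from -0.23 to 0.21, and the liver minus brain difference of Lrp12 from -0.29 to 0.13. For that difference 0 members were called under any alternative run. In brain, Lrp3, Lrp4, Lrp5, Lrp6, Lrp8 and Lrp10 stayed below 0 under all 16 alternatives, whereas Lrp1b reached 0.044 with length alone. Lrp3 came as near to 0 as -0.056 and Lrp6 as -0.062. The alternatives reuse the same brain libraries, so the shared sign is no replication. Lrp12 went to -0.043 without brain control 3 and to -0.016 without brain heat stress 3. The causes were not tested.

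Over all genes, edgeR made 0 adjusted calls in brain and DESeq2 618. In liver edgeR made 0, DESeq2 61, the replicate block 1 and the correction 19, and for the liver minus brain difference edgeR made 1, DESeq2 48 and the block 0.

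In brain and liver the same-numbered libraries of the groups did not deviate together (correlations of -0.29, 0.19 and -0.20 in brain), so they share only a number, and the replicate block kept 0 adjusted calls over all brain genes. Leaving out liver control 1 is also the control comparison without muscle transcripts.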
